A study of Mus musculus with 12 samples.

Results

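The genes described here are 10 genes of sugar digestion, sugar uptake and first-pass sugar metabolism in the jejunum of mice, of 27568 genes tested on the array. They are the disaccharidases Sis, Mgam, Lct and Treh, the sugar transporters Slc5a1, Slc2a2 and Slc2a5, and the hexose-metabolism enzymes Khk, G6pc and Fbp1. They were found through the RefSeq accession of each probe, not through any measured value, and each of the 10 was represented by 1 probe that passed the filter. Male mice of 2 genotypes were used, wild type (WT) and IAP knockout (KO, Akp3-/-), where IAP is intestinal alkaline phosphatase and Akp3 encodes the form made in the upper small intestine. Treatment was oral and daily and began when the mice were 7 weeks old. Mice of each genotype were given either the vehicle, carboxymethylcellulose sodium salt at 5 g/L, or the vehicle with IIAEK, a pentapeptide that the labels call cholesterol-lowering, at 600 mg/kg body weight. It lasted 14 days by the titles and the protocol, although the source field of the IIAEK samples gives it in weeks. All 4 groups were fasted for 8 h before the jejunum was taken, and each group had 3 mice with 1 array each. The strain, the cells in which Akp3 was deleted and whether the mice were littermates are not given in the sources used here.

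Starch and sugars reach the jejunum as short chains and disaccharides. Sucrase-isomaltase and maltase-glucoamylase, which are anchored in the brush border of mature enterocytes, release glucose and fructose from them, while lactase splits milk sugar and trehalase splits the fungal and insect sugar trehalose. Glucose and galactose enter the cell with sodium through SGLT1, fructose enters through GLUT5, and the basolateral carrier GLUT2 lets hexoses leave towards the portal blood. Inside the enterocyte, ketohexokinase phosphorylates fructose, and fructose-1,6-bisphosphatase and glucose-6-phosphatase can carry its carbon on to free glucose. In this tissue these genes are known to follow the position along the gut, the maturity of the enterocyte and the sugar content of the diet.

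Levels are log2 of the processed signal minus log2 of that array's 75th percentile, so that 1 unit is a factor of 2 within a gene. Levels of different probes are not on a common scale and are not set against each other. The 75th percentile itself ran from 410.5 to 578 signal units over the 12 arrays, and the share of spots well above background from 59.99% to 67.1%. The targeted gene Akp3 was well above background on 5 of the 6 WT arrays and on 0 of the 6 KO arrays. Its levels were -3.30, -3.95 and -5.94 in WT vehicle mice, -3.89, -1.11 and -1.24 in WT IIAEK mice and between -6.83 and -5.48 in the KO mice, so the third WT vehicle mouse was not separated from the knockouts. Where the probe lies relative to the deletion is not given in the sources used here. All 7 general epithelial markers and all 12 markers of mature enterocytes were well above background on every array. Exocrine pancreas genes stood high on the third WT IIAEK array, where their summed level (the mean deviation of the list's genes from their own averages) was 7.36, and on the third KO vehicle array, where it was 3.33, against -2.32 to 0.78 on the other 10 arrays. The arrays lay on 2 slides: slide 1 held the first mouse of both WT groups and the first and second mice of both KO groups, and slide 2 held the rest. Nothing in the labels says that the replicates were processed independently, and p-values measure only the spread between these arrays.

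All 10 genes were well above background on all 12 arrays. None of the 10 passed the test at an adjusted p of 0.05 (limma with Benjamini-Hochberg adjustment over all genes tested) in any of the 7 comparisons of the design. The share of all genes called was 0% in 6 of those comparisons: IIAEK in WT, IIAEK in KO, knockout on vehicle, knockout on IIAEK, the interaction and IIAEK averaged over genotypes. It was 0.00363%, or 1 gene, for the knockout averaged over treatments. The genes differed widely in how much they varied between mice of 1 group. The within-group SD was 0.15 for Sis and 0.19 for Mgam, 0.24 for Slc2a2, 0.28 for Khk, 0.29 for both Treh and Slc5a1 and 0.35 for Lct, beside a median of 0.25 over all genes. It was 0.55 for G6pc, 0.58 for Slc2a5 and 0.70 for Fbp1, which is above that of 92.1%, 92.9% and 96.1% of the genes tested.

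**Figure D1:**
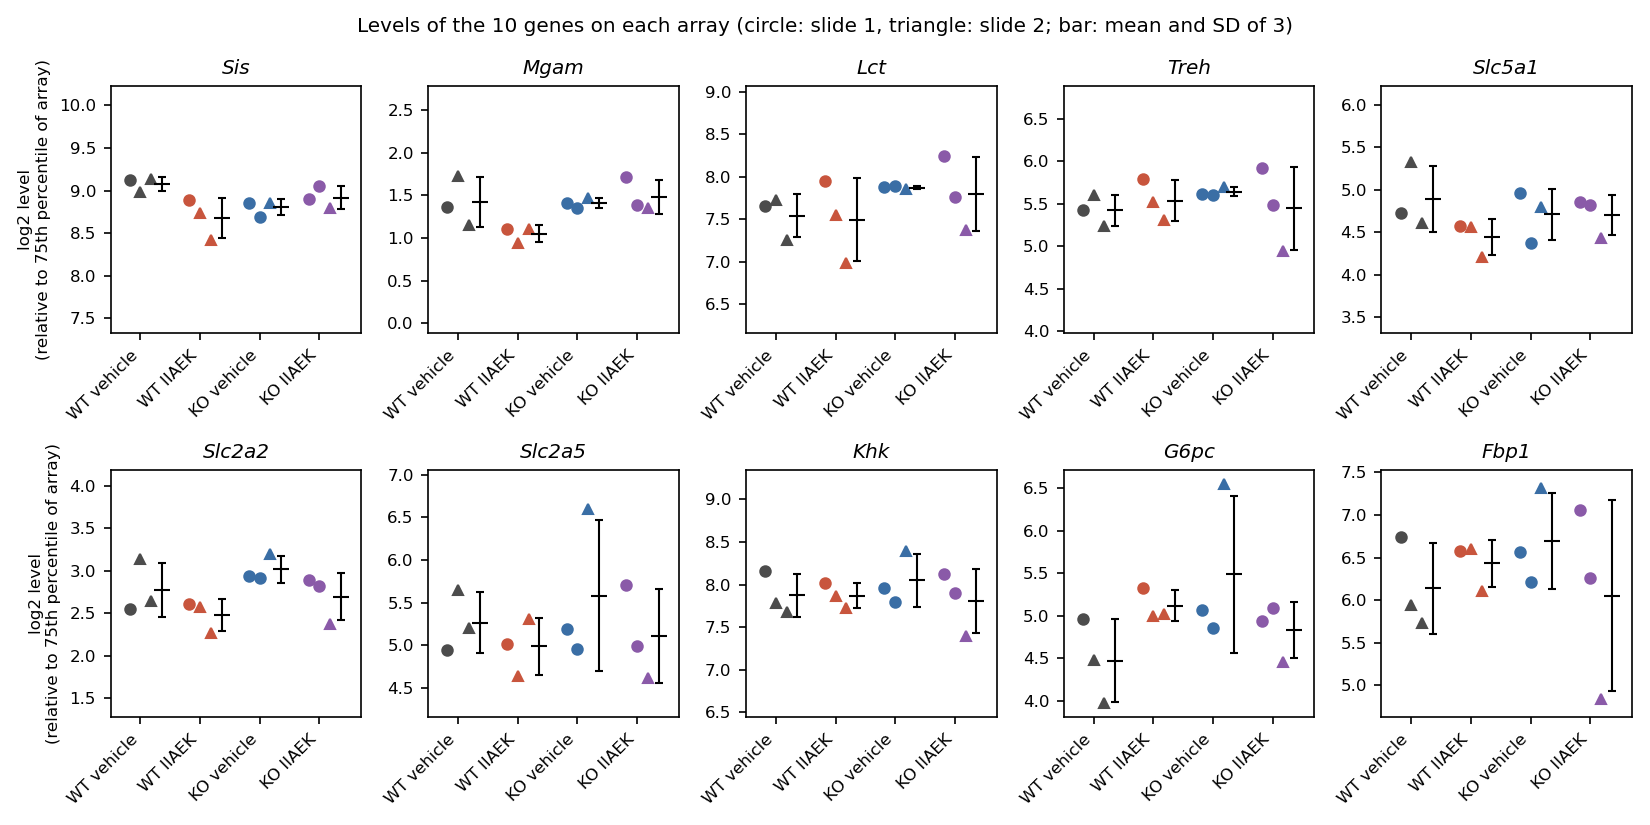
Level of each of the 10 genes on each array, as log2 signal relative to its array's 75th percentile (vertical axis, all panels spanning the same number of log2 units), by group (horizontal axis), with the mean and SD of the 3 mice of a group. Sis and Mgam lie in narrow bands, whereas G6pc, Slc2a5 and Fbp1 have 1 KO vehicle array at 6.54, 6.59 and 7.32 above the others of its group.

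The first question was whether IIAEK changed the sugar-handling genes of normal mice. In WT mice the sucrose- and starch-digesting enzymes Sis and Mgam and the glucose carrier Slc5a1 were lower on IIAEK on every array, by 0.37 to 0.44 on the log2 scale, while the other disaccharidases, Lct and Treh, showed no such separation. None of these differences passed the test over all genes, and without the second vehicle mouse the change of Mgam was -0.21 and that of Slc5a1 -0.22. Sis, sucrase-isomaltase, stood at 9.12, 8.99 and 9.13 in WT vehicle mice and at 8.89, 8.73 and 8.42 in WT IIAEK mice. The 2 groups did not overlap, and the third IIAEK mouse was the lowest of all 12. The change was -0.40 (SE 0.15, 95% interval -0.72 to -0.08), a fold change of 0.759, with an unadjusted p of 0.0197 and an adjusted p of 0.373 (limma). Mgam, maltase-glucoamylase, stood at 1.37, 1.73 and 1.15 on vehicle and at 1.11, 0.94 and 1.11 on IIAEK. Its groups also did not overlap, although the lowest vehicle mouse was close to the highest IIAEK mouse, and the change was -0.37 (SE 0.17, unadjusted p = 0.0472, adjusted p = 0.387 by limma).

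Lct, lactase, stood at 7.65, 7.72 and 7.25 in WT vehicle mice and at 7.95, 7.55 and 6.98 in WT IIAEK mice. The IIAEK mice spanned the whole vehicle range and the change was -0.05 (SE 0.26). Treh, trehalase, stood at 5.43, 5.60 and 5.24 on vehicle and at 5.79, 5.52 and 5.30 on IIAEK, with overlapping groups and a change of 0.11 (SE 0.22). The 95% intervals of these changes, -0.62 to 0.53 for Lct and -0.38 to 0.60 for Treh, leave room for changes as large as those of Sis and Mgam.

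Of the transporters, Slc5a1, which encodes SGLT1, stood at 4.73, 5.33 and 4.61 in WT vehicle mice and at 4.57, 4.56 and 4.20 in WT IIAEK mice. Its groups did not overlap, although the third vehicle mouse and the first IIAEK mouse were close, and the change was -0.44 (SE 0.23, unadjusted p = 0.0739, adjusted p = 0.403 by limma). Slc2a2, which encodes GLUT2, stood at 2.55, 3.13 and 2.64 on vehicle and at 2.61, 2.58 and 2.26 on IIAEK, a change of -0.29 (SE 0.20) with overlapping groups that became -0.11 without the second vehicle mouse. Slc2a5, which encodes GLUT5, stood at 4.95, 5.65 and 5.20 on vehicle and at 5.01, 4.63 and 5.31 on IIAEK, a change of -0.28 (SE 0.41) with overlapping groups. All 3 transporters had a change below 0, with a median of -0.29 beside a median of -0.06 over all genes.

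Of the 3 metabolic enzymes 2 had a change above 0 in the WT mice, and none had an unadjusted p under 0.05. G6pc, the catalytic subunit of glucose-6-phosphatase, stood at 4.96, 4.48 and 3.98 on vehicle and at 5.33, 5.00 and 5.03 on IIAEK. The groups did not overlap, and the change was 0.64 (SE 0.39, 95% interval -0.22 to 1.51, adjusted p = 0.446 by limma) and 0.40 without the third vehicle mouse. Fbp1, fructose-1,6-bisphosphatase, stood at 6.74, 5.94 and 5.73 on vehicle and at 6.58, 6.60 and 6.11 on IIAEK, a change of 0.29 (SE 0.49) with overlap. Khk, ketohexokinase, stood at 8.16, 7.79 and 7.68 on vehicle and at 8.02, 7.86 and 7.73 on IIAEK, a change of -0.01 (SE 0.22).

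Over the 10 genes, 7 changes were below 0 and 3 above 0 in WT mice, with a median of -0.16. Of all genes 56.2% were below 0. Under the other scalings and background correction between 5 and 8 of the 10 were below 0, except that scaling to mature enterocyte genes left 2 below 0 and moved the median to 0.21. In 3 of the 10 the IIAEK group lay wholly below the vehicle group, as it did for 14.3% of all genes, and in 1 of the 10 it lay wholly above, as it did for 10.7%. Unadjusted p was under 0.05 for 2 of the 10 (Sis and Mgam) and for 12.8% of all genes, so a separation of this kind was common across the array in this comparison.

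The markers of the absorptive cell moved in the WT mice in the direction of Sis, Mgam and Slc5a1, and not of Treh, G6pc and Fbp1. Of 12 mature enterocyte markers, 11 had a change below 0 on IIAEK with a median of -0.28, and their summed level ran from 0.09 to 0.32 on vehicle and from -0.40 to 0.07 on IIAEK. Among the 12 are the fat-absorption genes Fabp1, Fabp2, Apoa1, Apoa4, Apob and Mttp. Whether IIAEK acts on the markers directly was not tested. Of 10 smooth muscle markers, all 10 had a change above 0 with a median of 0.90, and their summed level ran from -0.76 to -0.16 on vehicle and from -0.11 to 0.96 on IIAEK. The third WT IIAEK mouse, lowest of all 12 for Sis, Lct, Slc5a1 and Slc2a2, was also lowest for the enterocyte list and highest for the smooth muscle and pancreas lists. Of 6 tested distal small-intestine markers, 6 had a change below 0 in WT mice with a median of -0.58. Of 6 proximal markers, 5 were above 0 with a median of 0.42. The third WT IIAEK mouse was highest of all 12 for the proximal list (0.72) and lowest for the distal list (-0.69). In a bulk sample, fewer enterocytes, less RNA of a gene in each enterocyte and another position along the gut cannot be told apart. When each array was scaled to the mean of the 12 enterocyte markers, a setting chosen after seeing the data that moved the median of all genes from -0.06 to 0.32, the WT change was -0.03 for Sis, 0.00 for Mgam and -0.07 for Slc5a1, and 1.02 for G6pc. Scaled instead to the 7 general epithelial markers, which moved the median of all genes to -0.17, it was -0.51 for Sis, -0.48 for Mgam, -0.56 for Slc5a1 and 0.53 for G6pc. Without the 2 arrays highest in pancreas genes the change was -0.27 for Sis, -0.40 for Mgam, -0.32 for Slc5a1 and 0.21 for Lct. Of the 10 genes, 5 were then below 0 and 5 above, with a median of -0.06.

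**Figure D2:**
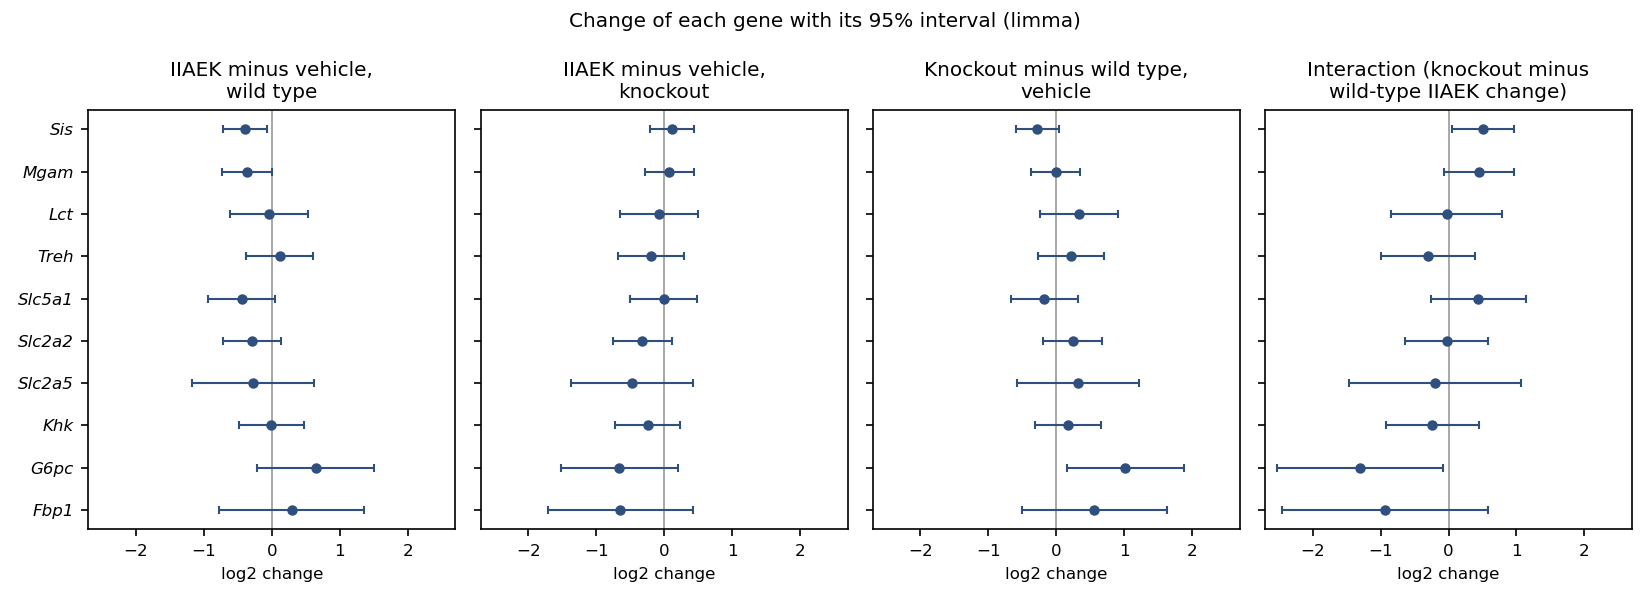
Log2 change of each of the 10 genes with its 95% interval (horizontal axis) in 4 of the comparisons, from the limma fit over all 12 arrays. In WT mice the intervals of Sis (-0.72 to -0.08) and Mgam (-0.73 to -0.01) lie below 0 before adjustment, in KO mice all 10 intervals span 0, and the interaction intervals of Sis (0.06 to 0.97) and G6pc (-2.52 to -0.08) do not.

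The second question was whether IIAEK acted on these genes in mice in which Akp3 was deleted. In KO mice the brush-border enzymes Sis and Mgam differed little between IIAEK and vehicle, and the changes that were largest in size, all below 0, were those of G6pc, Fbp1 and Slc2a5, each much smaller without 1 mouse that stood apart. No gene passed the test. Sis stood at 8.86, 8.69 and 8.86 in KO vehicle mice and at 8.90, 9.05 and 8.79 in KO IIAEK mice, a change of 0.11 (SE 0.15, 95% interval -0.21 to 0.44). Mgam stood at 1.41, 1.35 and 1.47 on vehicle and at 1.71, 1.39 and 1.35 on IIAEK, a change of 0.08 (SE 0.17). Both groups overlapped for both genes.

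Lct stood at 7.88, 7.89 and 7.85 in KO vehicle mice and at 8.25, 7.77 and 7.38 in KO IIAEK mice, a change of -0.07 (SE 0.26). Treh stood at 5.62, 5.60 and 5.70 on vehicle and at 5.92, 5.48 and 4.95 on IIAEK, a change of -0.19 (SE 0.22). For both enzymes the vehicle mice were nearly alike, with an SD of 0.02 for Lct and 0.05 for Treh, while the IIAEK mice spread above and below them with an SD of 0.44 and 0.49.

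Slc5a1 stood at 4.96, 4.38 and 4.79 in KO vehicle mice and at 4.86, 4.82 and 4.43 in KO IIAEK mice, a change of -0.01 (SE 0.23). Slc2a2 stood at 2.93, 2.91 and 3.20 on vehicle and at 2.89, 2.82 and 2.38 on IIAEK. Its groups did not overlap, which held for 1 of the 10 genes and for 3.06% of all genes in that direction, and its change was -0.32 (SE 0.20, adjusted p = 0.893 by limma), or -0.16 without the third IIAEK mouse and -0.07 on slide 1 alone. Slc2a5 stood at 5.19, 4.96 and 6.59 on vehicle and at 5.71, 4.99 and 4.62 on IIAEK, a change of -0.48 (SE 0.41) that became 0.03 without the third vehicle mouse.

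G6pc stood at 5.06, 4.86 and 6.54 in KO vehicle mice and at 4.95, 5.09 and 4.46 in KO IIAEK mice, a change of -0.66 (SE 0.39) that became -0.13 without the third vehicle mouse. Fbp1 stood at 6.56, 6.22 and 7.32 on vehicle and at 7.06, 6.26 and 4.84 on IIAEK, a change of -0.65 (SE 0.49) that became -0.04 without the third IIAEK mouse. Khk stood at 7.96, 7.80 and 8.40 on vehicle and at 8.13, 7.90 and 7.39 on IIAEK, a change of -0.24 (SE 0.22) that became -0.04 without the third IIAEK mouse. Over the 10 genes 8 changes were below 0, beside 46.2% of all genes, with a median of -0.22 beside 0.02 over all genes. Unadjusted p was under 0.05 for 0 of the 10 and for 4.62% of all genes.

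The KO arrays that stood apart are the 2 KO arrays on slide 2. Between the 4 KO arrays of slide 1 the change with IIAEK was 0.27 for Slc2a5, 0.14 for Khk, 0.06 for G6pc and 0.27 for Fbp1, and between the single pair on slide 2 it was -1.98, -1.002, -2.09 and -2.48. The third KO vehicle mouse was the highest of all 12 for Slc2a2, Slc2a5, Khk, G6pc and Fbp1, and the third KO IIAEK mouse was the lowest of all 12 for Treh, Slc2a5, Khk and Fbp1. Their enterocyte lists were at -0.02 and 0.14, within the range of the other arrays. Between the KO groups, 8 of the 12 enterocyte markers were above 0 on IIAEK and 4 below, with a median of 0.11. The KO vehicle mouse was high in pancreas genes (3.33) and the KO IIAEK mouse was the highest of all 12 in Paneth cell genes (1.10). B and plasma cell genes separated the KO groups as a whole: 9 of 9 tested were below 0 on IIAEK with a median of -3.58, and their summed level ran from 1.30 to 1.91 on vehicle and from -1.89 to -1.10 on IIAEK. The part of the slide and of the pancreas, Paneth cell and B and plasma cell genes in these values was not tested.

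**Figure D3:**
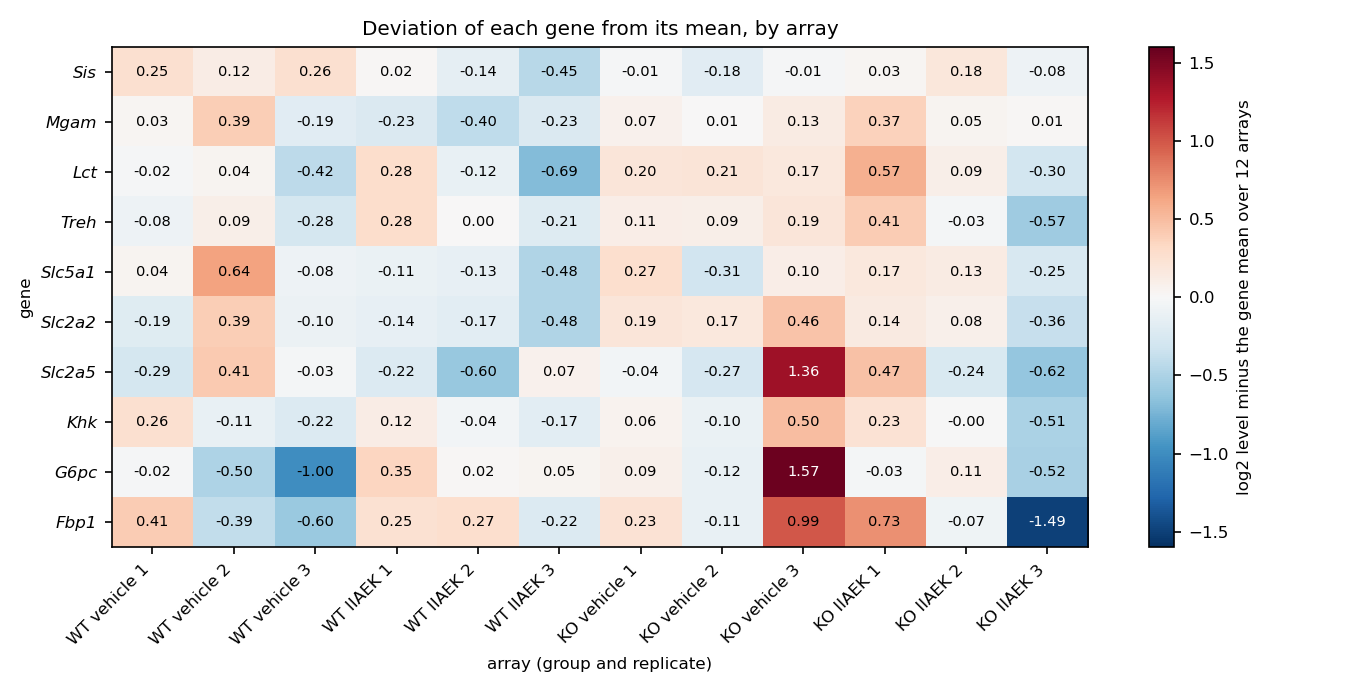
Level of each gene (rows) on each array (columns) minus the mean of that gene over the 12 arrays, in log2 units, with higher values in red and lower values in blue. The third KO vehicle array reaches 1.57 for G6pc, 1.36 for Slc2a5 and 0.99 for Fbp1, and the third KO IIAEK array falls to -1.49 for Fbp1.

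The difference between the genotypes in the change with IIAEK had its smallest unadjusted p for Sis and G6pc, in opposite directions, and neither passed the test over all genes. The interaction, the change in KO mice minus the change in WT mice, was 0.51 for Sis (SE 0.21, unadjusted p = 0.0305, adjusted p = 0.311 by limma) and -1.30 for G6pc (SE 0.56, unadjusted p = 0.0384, adjusted p = 0.316 by limma). These were 2 of the 10 genes with an unadjusted p under 0.05, beside 15.2% of all genes. It was 0.45 for Mgam and 0.44 for Slc5a1 (SE 0.23 and 0.32), -0.94 for Fbp1 (SE 0.69), and between -0.31 and -0.03 for Treh, Khk, Slc2a5, Lct and Slc2a2. Without the third KO vehicle mouse the interaction of G6pc was -0.77, and without the third KO IIAEK mouse that of Fbp1 was -0.33. Without the second WT vehicle mouse that of Mgam was 0.29 and that of Slc5a1 0.22. Scaled to the enterocyte markers, the interaction was 0.01 for Sis, -0.06 for Mgam, -0.07 for Slc5a1 and -1.81 for G6pc, with the median of all genes moved from 0.07 to -0.44.

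The third question was how KO mice differed from WT mice. Strain and littermate status are not given. A difference in background or near the targeted gene therefore cannot be told apart from loss of Akp3. On vehicle, KO mice had less Sis than WT mice on every array and more Lct and Treh on every array, with the largest change in G6pc, and no gene passed the test. The change was -0.28 for Sis (SE 0.15, adjusted p = 0.475 by limma), 0.33 for Lct (SE 0.26) and 0.22 for Treh (SE 0.22). Lct lies on chromosome 1, as the targeted gene does. The separation of Treh was narrow, with the second WT and the second KO mouse both at 5.60. With the slide as a block the changes of Lct and Treh were 0.20 and 0.13, and without the third WT vehicle mouse they were 0.18 and 0.12. A KO group wholly below its WT group was seen for 1 of the 10 genes and for 13.3% of all genes, and 1 wholly above for 2 of the 10 and for 10.2%. G6pc was higher by 1.01 (SE 0.39, a fold change of 2.02, unadjusted p = 0.0251, adjusted p = 0.427 by limma), although its groups overlapped, and by 0.49 without the third KO vehicle mouse. It was the 1 gene of the 10 with an unadjusted p under 0.05, beside 11.3% of all genes. On slide 1 alone the change of G6pc was -0.0019. Fbp1 (0.56, SE 0.49), Slc2a5 (0.32, SE 0.41), Slc2a2 (0.24, SE 0.20) and Khk (0.18, SE 0.22) were also above 0, Mgam was at -0.01 and Slc5a1 at -0.18. All 12 mature enterocyte markers were below 0 in the same comparison, with a median of -0.25, and with scaling to them the change of Sis was 0.03. Above 0 were 9 of 10 smooth muscle markers (median 0.52), 7 of 7 tested adipose markers (1.38) and 8 of 9 tested B and plasma cell markers (2.45). The summed level of the B and plasma cell list ran from -1.82 to 1.46 in WT and from 1.30 to 1.91 in KO mice on vehicle, and the part of these lists was not tested.

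On IIAEK, Mgam was higher in KO than in WT mice on every array, by 0.44 (SE 0.17, a fold change of 1.35, unadjusted p = 0.0229, adjusted p = 0.619 by limma). It was 1 of the 10 genes with a KO group wholly above its WT group, beside 6.51% of all genes, and the 1 gene with an unadjusted p under 0.05, beside 7.93%. In the same comparison 11 of 12 mature enterocyte markers were above 0, with a median of 0.20. With scaling to them the change of Mgam was 0.23, and the median of all genes moved from 0.03 to -0.17. The changes of the other genes ran from -0.38 for Fbp1 to 0.30 for Lct, with 0.23 for Sis. Without the third KO IIAEK mouse that of Fbp1 was 0.23, and without the third WT IIAEK mouse that of Lct was 0.04 and that of Sis 0.11. The comparisons on vehicle and of IIAEK in WT mice share the WT vehicle arrays, and those on IIAEK and of IIAEK in WT mice share the WT IIAEK arrays.

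Averaged over genotypes, the change with IIAEK was below 0 for all 10 genes and for 51.4% of all genes. The median was -0.14 beside -0.01 over all genes. The 10 genes are correlated from mouse to mouse, so their signs are not independent of each other. The change ran from -0.38 for Slc2a5 (SE 0.29) to -0.01 for G6pc, and the smallest unadjusted p was 0.0501, for Slc2a2 (-0.31, SE 0.14, adjusted p = 0.961 by limma). Unadjusted p was under 0.05 for 0 of the 10 and for 3.49% of all genes. The signs of Lct, Treh and G6pc turned positive when the arrays were scaled to the enterocyte markers, at 0.06, 0.08 and 0.11, and those of Treh and G6pc also with scaling to the array median, at 0.01 and 0.05. On slide 1 alone 6 of the 10 were above 0 with a median of 0.03, and on slide 2 alone all 10 were below 0 with a median of -0.47. Without the third KO IIAEK mouse 4 of the 10 were above 0, and without the third WT IIAEK mouse 3 were. Averaged over treatments, the change in the knockout was above 0 for 9 of the 10, with a median of 0.15 beside 0.00 over all genes (all 10 with scaling to the enterocyte markers, 6 with the slide as a block and 6 without the third KO vehicle or the first KO IIAEK mouse), and was largest for G6pc (0.36, SE 0.28) and Lct (0.31, SE 0.19). Unadjusted p was under 0.05 for 0 of the 10 and for 5.5% of all genes, and 49.9% of all genes had a change below 0.

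The levels of the 10 genes were also compared from mouse to mouse, over all groups. Of their 45 pairs, 44 had a Pearson correlation above 0 over the 12 arrays, with a median of 0.50, and the exception was Sis with G6pc at -0.21. For deviations from the group means 43 pairs were above 0 with a median of 0.54, and the 2 below 0 were Sis with Mgam (-0.20) and Sis with Slc2a5 (-0.01). On slide 1 alone 11 pairs were below 0 (median 0.27), on slide 2 alone 3 (median 0.58), and without the third KO vehicle and the third KO IIAEK mouse 8 (median 0.37). The median correlation of each gene with the other 27557 genes that had values on all arrays lay between -0.07 (Fbp1) and 0.06 (Sis). The values of 1 array share its scaling, RNA sample and slide. After Benjamini-Hochberg adjustment of permutation p-values over the 45 pairs, 6 pairs passed 0.05 by Pearson's r and 3 by Spearman's rho. The share of all gene pairs on the array that would pass was not computed.

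**Figure D4:**
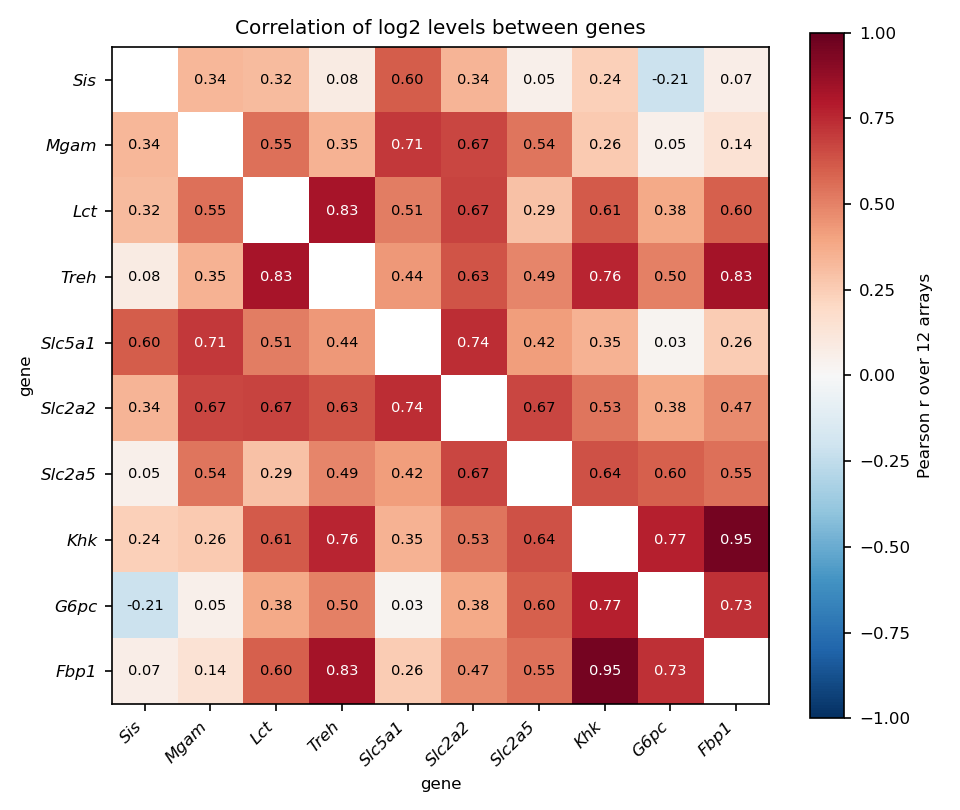
Pearson correlation of the log2 levels of each pair of the 10 genes over the 12 arrays (colour and number), with the genes in the order disaccharidases, transporters, metabolic enzymes. The highest value is 0.95 for Khk and Fbp1, and the row of Sis holds the only value below 0, -0.21 with G6pc.

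Khk and Fbp1, which act early and late on the route from fructose to glucose, were the closest pair. Their r was 0.95 (permutation p = 1e-05, the smallest that 100000 resamples can give, adjusted p = 0.00045) and their rho 0.94 (adjusted permutation p = 0.0009). Of all genes tested, Fbp1 had the highest correlation with Khk when members and named and unnamed probes were ranked together, and Khk ranked 2 for Fbp1. Without the 2 mice farthest from the Khk median, the third KO vehicle and the third KO IIAEK mouse, r was 0.90 (permutation p = 0.00041). It was 0.97 for deviations from the group means, 0.90 within slide 1 and 0.95 within slide 2 (6 arrays each). Over 17 other settings it ran from 0.88 to 0.98.

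Lct and Treh, both small-intestinal disaccharidases of the brush border, had an r of 0.83 (permutation p = 0.00121, adjusted p = 0.0181) and a rho of 0.91 (adjusted permutation p = 0.00292). Among the 27557 other genes, Treh ranked 23 for Lct and Lct ranked 80 for Treh. Without the first KO IIAEK and the third WT IIAEK mouse r was 0.86 (permutation p = 0.00187), for deviations from the group means it was 0.91, and within the slides it was 0.96 and 0.67. The other 4 pairs that passed by Pearson's r were Treh with Fbp1 (0.83), Khk with G6pc (0.77), Treh with Khk (0.76) and Slc5a1 with Slc2a2 (0.74). Their partners ranked from 45 (Treh for Fbp1) to 232 (Khk for Treh) among the other genes. With the 2 arrays farthest from the first gene's median left out, r fell to 0.58, 0.57, 0.55 and 0.52 for these pairs. The permutation p was then 0.077, 0.0783, 0.0952 and 0.126. Leaving out extreme arrays narrows the range of a gene, so these values cannot show whether the pairs rest on those arrays. For deviations from the group means r was 0.81, 0.84, 0.75 and 0.83. In the same order, r was 0.57, 0.10, 0.24 and 0.20 on slide 1 alone and 0.88, 0.87, 0.86 and 0.86 on slide 2 alone. Mgam and Slc5a1 passed by rho (0.81, adjusted permutation p = 0.034) and not by r (0.71, adjusted permutation p = 0.0626). Sis, the gene with the smallest spread, had its highest r with Slc5a1 (0.60, adjusted permutation p = 0.117).

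**Figure D5:**
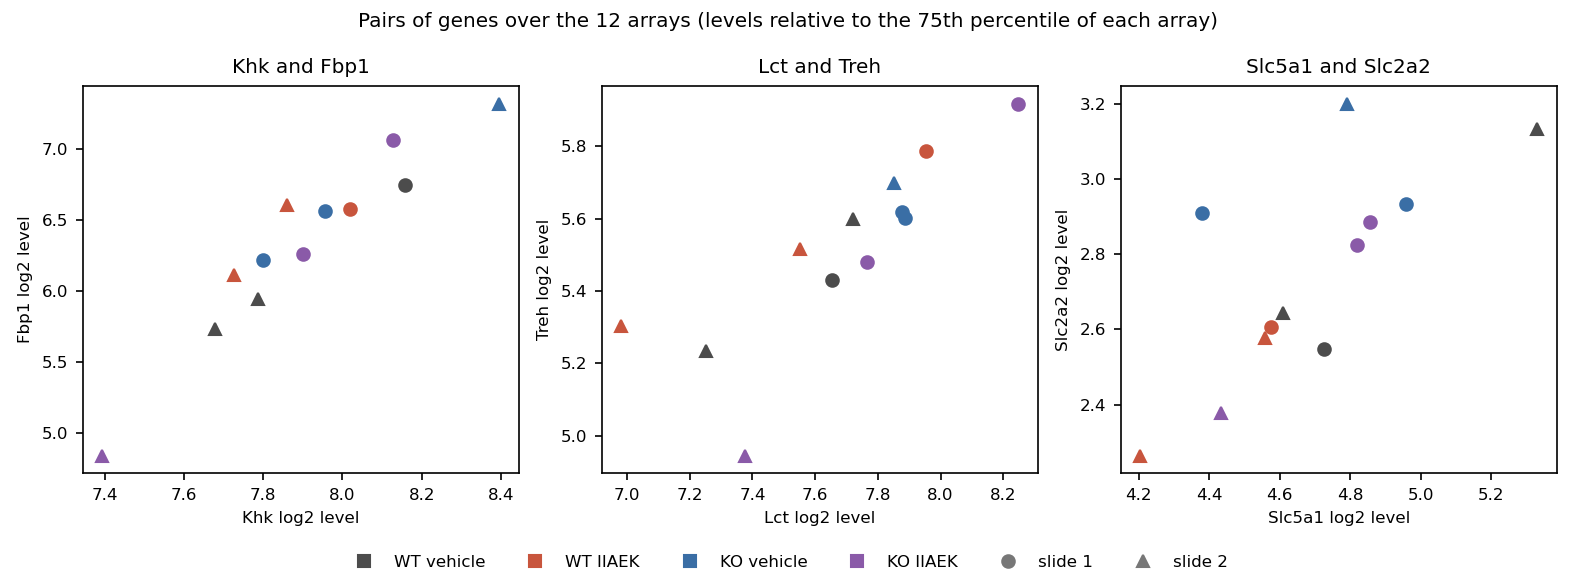
Levels of 3 pairs of genes on the 12 arrays (log2 relative to the 75th percentile, both axes), coloured by group and shaped by slide. Khk and Fbp1 rise together from the third KO IIAEK array (7.39 and 4.84) to the third KO vehicle array (8.40 and 7.32), and Lct and Treh (r = 0.83) lie closer to a line than Slc5a1 and Slc2a2 (r = 0.74).

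The sequences before the starts of the genes that moved together (Khk with Fbp1, Lct with Treh) and of the 2 genes with the smallest interaction p (Sis and G6pc) are shown, to set the DNA at their starts beside the values. They are the 250 bases before the start used for each gene in a promoter table made from RefSeq's annotation of GRCm38.p6, found for all 10 genes by symbol, and lie at chr3:72967864-72968113 (minus strand) for Sis, chr1:128328319-128328568 (minus) for Lct, chr9:44672983-44673232 (plus) for Treh, chr5:30921309-30921558 (plus) for Khk, chr11:101367466-101367715 (plus) for G6pc and chr13:62888283-62888532 (minus) for Fbp1. The last 123 bases of the Khk window and the last 16 of the Fbp1 window lie inside the span that RefSeq gives the gene, so the start used there is not the outermost. The sequences are written 5′ to 3′ along the gene. Capitals mark exact matches, on either strand, to 4 short motifs chosen with the results known. TTTATG is a core that CDX factors bind. Zinc-finger factors of the GATA family bind AGATAA. The E-box is CACGTG, which is its own reverse complement, and TATAAA marks the box at which transcription machinery assembles.
Sis: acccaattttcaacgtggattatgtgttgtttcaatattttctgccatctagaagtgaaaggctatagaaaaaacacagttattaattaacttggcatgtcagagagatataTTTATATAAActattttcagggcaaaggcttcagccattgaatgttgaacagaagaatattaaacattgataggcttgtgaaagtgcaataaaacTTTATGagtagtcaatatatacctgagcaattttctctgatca
Lct: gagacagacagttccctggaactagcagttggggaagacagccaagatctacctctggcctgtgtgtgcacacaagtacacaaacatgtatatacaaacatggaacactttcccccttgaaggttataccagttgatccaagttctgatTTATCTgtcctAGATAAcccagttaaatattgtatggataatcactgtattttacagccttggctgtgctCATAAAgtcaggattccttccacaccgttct
Treh: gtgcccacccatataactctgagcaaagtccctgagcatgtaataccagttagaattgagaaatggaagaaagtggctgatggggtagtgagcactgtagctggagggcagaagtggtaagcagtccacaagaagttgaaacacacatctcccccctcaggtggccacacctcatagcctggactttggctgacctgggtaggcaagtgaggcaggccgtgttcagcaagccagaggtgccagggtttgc
Khk: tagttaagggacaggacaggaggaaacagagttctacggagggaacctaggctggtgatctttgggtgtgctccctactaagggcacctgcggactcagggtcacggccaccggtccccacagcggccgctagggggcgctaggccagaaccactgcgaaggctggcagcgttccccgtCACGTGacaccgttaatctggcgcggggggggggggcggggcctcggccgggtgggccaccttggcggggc
G6pc: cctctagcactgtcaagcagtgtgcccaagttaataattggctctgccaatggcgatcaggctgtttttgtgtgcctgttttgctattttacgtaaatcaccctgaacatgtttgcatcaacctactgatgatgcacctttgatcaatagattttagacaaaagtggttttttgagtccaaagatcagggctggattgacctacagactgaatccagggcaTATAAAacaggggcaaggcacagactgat
Fbp1: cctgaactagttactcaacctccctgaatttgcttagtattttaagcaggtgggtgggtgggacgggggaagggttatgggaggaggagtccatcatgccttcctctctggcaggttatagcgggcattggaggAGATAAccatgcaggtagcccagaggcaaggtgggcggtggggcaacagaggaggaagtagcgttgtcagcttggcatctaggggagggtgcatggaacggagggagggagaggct

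TTTATG was found before Sis, beginning 43 bases before the start, and on the opposite strand before Lct, 31 bases before it, and in 10.8% of the 32851 promoters of the same length. AGATAA was found before Lct (opposite strand at 101 bases, same strand at 90 bases), Fbp1 (116 bases) and, not shown, Mgam, and in 9.99% of promoters. CACGTG was found before the start used for Khk (71 bases, inside the gene's span) and, not shown, Mgam and Slc5a1, and in 6.02%. TATAAA was found before G6pc (29 bases), Sis (2 overlapping matches on opposite strands at 138 and 134 bases) and, not shown, Mgam, and in 12.4%. Treh, Slc2a2 and Slc2a5 had no match to any of the 4. Khk and Fbp1 shared none of the 4 motifs in this window and neither did Lct and Treh, which says only that these letters are not in these bases of both.

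For each gene the 3 named genes with the most similar pattern over the 12 arrays, other members left out, were found as a description. For Sis they were Csnk1g3 (r = 0.97), Gpx4 (0.95) and Mtarc2 (0.95), and for Mgam they were Sox6 (0.91), Pacsin2 (0.89) and Lpin3 (0.89). For Lct they were Rnf167 (0.89), Hadh (0.89) and Slc25a42 (0.87), and for Treh they were Cyp2d11 (0.95), Crat (0.95) and Cyp2d26 (0.94). For Slc5a1 they were Optn (0.90), Ormdl3 (0.86) and Ppa1 (0.86), for Slc2a2 Vwa1 (0.92), H2-Bl (0.92) and Lmtk3 (0.89), and for Slc2a5 Eps8l3 (0.92), Bcr (0.92) and Gripap1 (0.92). For G6pc they were P2rx6 (0.92), Mief2 (0.91) and Fam53b (0.90). Khk and Fbp1 had Pbx4 (0.92 and 0.95) and Plekha8 (0.90 and 0.94) in common, with Ctf1 (0.92) for Khk and Eif1ad (0.91) for Fbp1.

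The genes around the 10 in sugar handling were taken as 6 lists: other hexose transporters, the sodium pump and membrane partners, the other enzymes of fructolysis and gluconeogenesis, glycolysis, glycogen and galactose metabolism, and sugar sensing with its transcription factors. None of their tested genes passed the test in any comparison. In WT mice on IIAEK, 13 of 15 glycolysis genes were above 0 with a median of 0.52 beside -0.06 over all genes, and between 12 and 15 were under the other scalings and background correction. Hk1, a hexokinase, was at 0.65 (SE 0.20), Aldoa, an aldolase, at 0.62 (SE 0.20) and Pfkm, the muscle form of phosphofructokinase, at 0.78 (SE 0.26), each with an adjusted p of 0.373 (limma). These are forms that muscle also makes, and the smooth muscle markers were higher on the same arrays (0.90 in median); their part was not tested. In the interaction 12 of 15 glycolysis genes were below 0 with a median of -0.69, among them Hk1 (-0.92), Aldoa (-0.86) and Gapdh (-0.82).

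Of 12 tested genes of glycogen and galactose metabolism, 9 were above 0 in WT mice on IIAEK with a median of 0.24. They include Pygb, a glycogen phosphorylase (0.70, SE 0.22), Gaa, the lysosomal alpha-glucosidase (0.71, SE 0.25), and Gys1, the muscle glycogen synthase (0.54, SE 0.23). In KO mice Ugp2, which makes UDP-glucose, was at 0.35 (SE 0.15) and Gbe1, the branching enzyme, at 0.48 (SE 0.23).

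Of 13 other genes of fructolysis and gluconeogenesis, 7 were above 0 and 6 below in WT mice, and 11 of 13 were below 0 in KO mice with a median of -0.18. Glyctk, a glycerate kinase, was at -0.63 (SE 0.21) and Mdh1, cytosolic malate dehydrogenase, at -0.52 (SE 0.18) in WT mice, while G6pc3, the widely expressed glucose-6-phosphatase, was at 0.59 (SE 0.24). The interaction of Mdh1 was 0.80 (SE 0.25, unadjusted p = 0.00744, adjusted p = 0.304 by limma). Tkfc, the triokinase that acts after Khk, stood at 4.83, 4.41 and 3.72 in WT vehicle, 4.90, 4.97 and 5.27 in WT IIAEK, 4.81, 4.85 and 5.58 in KO vehicle and 5.60, 4.35 and 3.51 in KO IIAEK mice. Like Khk and Fbp1 it was lowest in the third KO IIAEK mouse, and it was high in the third KO vehicle mouse. Pck1, the cytosolic carboxykinase of gluconeogenesis, was at 0.75 (SE 0.54) in the knockout averaged over treatments.

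Of 15 other hexose transporters, 8 were below 0 and 7 above in WT mice on IIAEK, with a median of -0.01. Slc2a4, the insulin-responsive carrier of muscle and fat, was at 1.04 (SE 0.31, unadjusted p = 0.00626, adjusted p = 0.373 by limma), Slc2a3 at 0.40 (SE 0.19) and Slc5a4a, a relative of Slc5a1, at -1.19 (SE 0.58). In the interaction Slc2a6 was at -1.37 (SE 0.56) and Slc2a3 at -0.68 (SE 0.27). Of 8 genes of the sodium pump and membrane partners, 5 were below 0 in WT mice. Pdzk1, a scaffold of brush-border transporters, was at -0.53 (SE 0.22) with groups that did not overlap, which held for 14.3% of all genes in that direction. Slc9a3, the sodium-proton exchanger, was at 0.97 (SE 0.54), and Atp1b3, a pump subunit, at 0.23 (SE 0.14).

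Of 18 genes of sugar sensing and transcription, 9 were above 0 and 9 below in WT mice on IIAEK. The transcription factor Hnf4g was at -0.55 (SE 0.21). Txnip, which glucose induces and which restrains glucose uptake, was at -0.52 in KO mice on IIAEK (SE 0.21, unadjusted p = 0.027, adjusted p = 0.893 by limma). Its groups did not overlap, which held for 3.06% of all genes in that direction. Txnip was at 0.43 in the knockout averaged over treatments (SE 0.15, unadjusted p = 0.0124, adjusted p = 0.769 by limma). In that last comparison the transcription factor Hnf4a was at -0.25 (SE 0.12).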

How the data were processed

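RNA of the jejunum was labelled with Cy3 and hybridised to 1-colour Agilent arrays, 1 mouse per array. Per the file headers, the authors used Feature Extraction 10.7.3.1, and the deposited intensity is the processed signal, corrected for background without any scaling across arrays. Median spot and background intensities are deposited beside it. The authors' value table, deposited as log2 values, follows the scaled signals after centring each probe on its median. Per the array design the probes are annotated on mm9, and symbols came from a RefSeq table.

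Here log2 signals were reduced by the 75th percentile of each array. A probe was kept if some group had it well above background in all 3 mice, and the brightest probe stood for a gene. limma 3.58.1 (R 4.3.3) fitted the 4 groups to 27568 genes, with 8 residual degrees of freedom and Benjamini-Hochberg adjustment at 0.05. An interval is 95%. Scripts were tested on simulated data. Non-uniform spots (0 to 4 per array) were removed and no spot was saturated. The number of arrays limits the precision.

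The members, lists, motifs and tests were chosen with earlier results of these data known. Named genes are the 10 members, Akp3, the 3 genes of smallest p per list in 4 comparisons, any list gene past the threshold and the 3 nearest genes of each member; Tkfc was also named in full after its values were seen. Markers and lists fixed with the design were used as given; Rsc1a1 and Defa17 had no probe by symbol, and some listed genes are not reported here. Alternatives were another background correction, scalings, filters, probe rule, slide, replicate block, fewer arrays and the deposited table.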

Additional observations from a re-analysis of the deposited data

How the results depend on the processing

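None of the 10 genes passed the threshold in any of the 7 comparisons under the alternatives run (15 in 4 comparisons; the fit on only the 2 groups compared could not be made for the interaction and the averaged comparisons) or the 12 fits that left out 1 array, while the count over all genes ran from 0 to between 4 and 115 by comparison. Of the 34 changes larger than their SE, 16 turned their sign under at least 1 setting, as did 32 of the 36 smaller ones. Of the 16, the values within slide 1 were 0.058 for Slc2a2 with IIAEK in WT, 0.27 for Slc2a5, 0.14 for Khk, 0.056 for G6pc and 0.27 for Fbp1 with IIAEK in KO, -0.0019 for G6pc and -0.35 for Fbp1 in the knockout on vehicle, 0.44 for Fbp1 in the interaction, 0.0090 for Slc5a1 and 0.17 for Slc2a5 with IIAEK averaged, and -0.16 for G6pc in the knockout averaged. Within slide 2 Slc2a2 was at -0.043 in the knockout on IIAEK. With scaling to mature enterocyte genes, added after seeing the data, the changes were 0.0046 for Mgam and 0.080 for Slc2a2 with IIAEK in WT, 0.028 for Sis in the knockout on vehicle, and -0.063 for Mgam and -0.071 for Slc5a1 in the interaction. Slc2a5 with IIAEK in KO ran from -0.79 to 0.031 with 1 array left out, the latter without the third KO vehicle mouse, and was 0.031 without the 2 arrays highest in pancreas genes. Beyond what these settings change by construction, the cause was not tested.

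The count of pairs past the threshold was 6, and it was 2 with normexp background correction, 12 with array median scaling, 11 with scaling to 7 epithelial genes, 18 with scaling to mature enterocyte genes and 1 to 6 with 1 array left out; it was 1 without the third WT vehicle and without the first KO IIAEK mouse.

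With the replicate number of the labels as a block (replicate block), 0 of the 10 genes passed, and the change of Sis with IIAEK in WT kept its value of -0.40 with an adjusted p of 0.384 (limma). In deviations from the group means, same-numbered arrays correlated at -0.25 to 0.35 over 18 pairs, 8 of them over 0.1. Other pairs of arrays from different groups ran from -0.40 to 0.38, and 5 of 12 arrays correlated best with their own number. These values cannot show whether the numbers pair the mice, because number and slide are partly the same. With 3 mice a group, an exact test of 1 gene cannot go below p = 0.1.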
